A study of Mus musculus with 8 samples.

Results

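The genes described here make and remodel the lipoproteins of plasma: *Apoa1*, *Apoa2*, *Apoa4*, *Apoa5*, *Apob*, *Apoc3* and *Apoe* encode apolipoproteins, *Mttp* a lipid transfer protein and *Lipc* hepatic lipase. They were chosen by symbol as a group of known function and make up 9 of the 24940 genes counted. All 9 passed the filter on low counts and were tested, with 12340 genes tested in all. Liver RNA of C57BL/6 males was sequenced from 4 mice that lack *Fxr* in the whole body and carry floxed *Bcl6* without Cre (FxrKO) and from 4 mice that lack *Fxr* in the same way and in which Albumin-Cre, active in hepatocytes, deletes floxed *Bcl6* (Bcl6LKOFxrKO). Both groups thus share the *Fxr* deletion, and the comparison asks what the added loss of hepatocyte *Bcl6* does in livers without FXR. The labels give no ages, and the methods of the study allow free feeding or a fast of 4 hours without naming which applied to these livers. Each liver has a number of its own in the labels, with no litter, day or cage, so the tests measure the spread between these 8 livers.

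Totals lay between 7586241 and 11839503 counts per liver, and the first principal component of log2 CPM, which held 71.7% of the variance, separated the genotypes. *Bcl6*, the deleted repressor, was at 21.2 to 65.2 CPM (gene counts scaled to a common library size with TMM factors) in FxrKO livers and at 4.61 to 11.9 CPM in Bcl6LKOFxrKO livers, a log2 fold change of -2.72 (SE, standard error, 0.40, edgeR adjusted p = 0.00123). *Nr0b2*, the gene of SHP, fell by 3.85 on the log2 scale (SE 0.34, adjusted p = 4.14e-06, edgeR), from 7.95 to 16.6 CPM to 0.454 to 1.33 CPM. The Bcl6LKOFxrKO livers held only 5 to 12 counts of it, so the size of this fall rests on few counts. Hepatocyte markers were abundant in every liver, with *Alb* at 4.04% to 5.16% of counts in FxrKO livers and 11.9% to 13.2% in Bcl6LKOFxrKO livers, and the 50 most counted genes held 29.9% to 31.4% and 40.5% to 43.9%. Values relative to the other genes of a library therefore depend on the scaling, and with total counts alone log2 fold changes moved by a median of -0.16 against TMM.

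Triglyceride leaves the liver in very low density lipoprotein (VLDL), which is built around APOB as MTTP loads it with lipid. In the blood, lipoprotein lipase and hepatic lipase strip the particles of lipid under the control of small exchangeable apolipoproteins, among which APOC3 slows and APOA5 speeds triglyceride clearance, and receptors then take the remnants up by way of APOE. High density lipoprotein (HDL) carries APOA1 and APOA2 and brings cholesterol back to the liver, where some of it is turned into bile acids.

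*Apoa1*, *Apoc3*, *Apoa4* and *Apoa5* lie next to each other on chromosome 9 of mm10 between 46228630 and 46271921. The order is *Apoa1* on the plus strand, *Apoc3* on the minus strand with its start 6.67 kb from that of *Apoa1*, *Apoa4* on the plus strand at 12.2 kb and *Apoa5* on the plus strand at 40 kb. *Lipc* lies elsewhere on the same chromosome, on the minus strand between 70798128 and 70952221. The promoter windows of the gene with the largest rise (*Apoa4*), the gene with the largest fall (*Lipc*) and the neighbours *Apoa1* and *Apoa5* are shown because these genes differed in direction. RefSeq (GRCm38.p6) gave a window at the start of the counted transcript for 8 of the 9 genes. It also gave windows at other starts of *Apoa2*, *Apoe*, *Apoa5* and *Lipc*, which are not among these 8. Each sequence reads 5′ to 3′ on the strand of the gene, from 250 bases before to 10 bases after the start of transcription, at chr9:46228380-46228639 (+) for *Apoa1*, chr9:46240594-46240853 (+) for *Apoa4*, chr9:46268358-46268617 (+) for *Apoa5* and chr9:70952212-70952471 (-) for *Lipc*. Capitals mark matches to the motifs named after the sequences.
Apoa1: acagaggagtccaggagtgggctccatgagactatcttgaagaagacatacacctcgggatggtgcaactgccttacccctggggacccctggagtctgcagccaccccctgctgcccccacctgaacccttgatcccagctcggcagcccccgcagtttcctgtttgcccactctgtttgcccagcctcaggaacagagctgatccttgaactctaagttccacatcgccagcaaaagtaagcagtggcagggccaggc
Apoa4: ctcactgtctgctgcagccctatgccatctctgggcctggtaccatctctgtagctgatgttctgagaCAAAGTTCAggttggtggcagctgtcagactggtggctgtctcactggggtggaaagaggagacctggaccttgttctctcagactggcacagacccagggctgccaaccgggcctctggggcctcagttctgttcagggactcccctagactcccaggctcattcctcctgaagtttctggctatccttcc
Apoa5: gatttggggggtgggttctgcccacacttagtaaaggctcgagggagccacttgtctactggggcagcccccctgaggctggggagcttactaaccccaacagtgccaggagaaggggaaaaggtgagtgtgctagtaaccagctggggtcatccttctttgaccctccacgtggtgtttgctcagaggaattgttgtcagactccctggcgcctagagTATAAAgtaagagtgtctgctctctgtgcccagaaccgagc
Lipc: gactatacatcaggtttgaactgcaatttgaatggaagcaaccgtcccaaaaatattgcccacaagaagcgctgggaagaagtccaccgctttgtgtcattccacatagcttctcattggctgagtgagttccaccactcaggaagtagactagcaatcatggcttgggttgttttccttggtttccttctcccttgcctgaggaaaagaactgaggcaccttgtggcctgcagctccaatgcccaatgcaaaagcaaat

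Windows of 250 bases before to 50 after the start were searched on both strands. TTCNNNGAA, the palindrome read by STAT5 and by BCL6, was in none of the 8 windows, and 8.3% of all 32851 RefSeq windows held it. The direct repeat of GGNCA with 2 bases between its copies, the pattern of receptor dimers with RXR, was in none of the 8 and in 2.08% of all windows. The inverted pattern of FXR with RXR, GGNCA and TGNCC with 1 base between them, was in none of the 8 and in 0.676% of all. A second look at the sequences added CAAAGNNCA, letters of an HNF4A site, and TATAAA, which 6.36% and 13.6% of all windows held. CAAAGNNCA began 182 bases before the start of *Apoa4* and 103 bases before that of *Apob*. TATAAA began 31 bases before the start of *Apoa5*, 60 before that of *Apob* and 212 before that of *Apoa2*. In windows at other RefSeq starts, CAAAGNNCA began 76 bases before a start of *Lipc*, and TATAAA 100 and 96 bases before a start of *Apoe*. The TATAAA of *Apoa5* lay 56 bases before its other start. TTCNNNGAA, the direct repeat and the inverted pattern were in none of these other windows. These are matches of letters, in windows that hold no distal site.

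Among the 9 genes, 4 rose and 3 fell in Bcl6LKOFxrKO livers against FxrKO livers, and 2 did not pass the test (edgeR adjusted p under 0.05). Of all tested genes, 16.2% were called higher and 13.5% lower. The genotypes did not overlap for 7 of the 9, where 31.3% of all tested genes had no overlap in either direction. *Apoa4*, *Apoe*, *Apoa2* and *Apoc3* were higher, *Lipc*, *Apoa5* and *Apob* lower. The median log2 fold change of the 9 was -0.01, beside 0.01 over all tested genes.

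**Figure D1:**
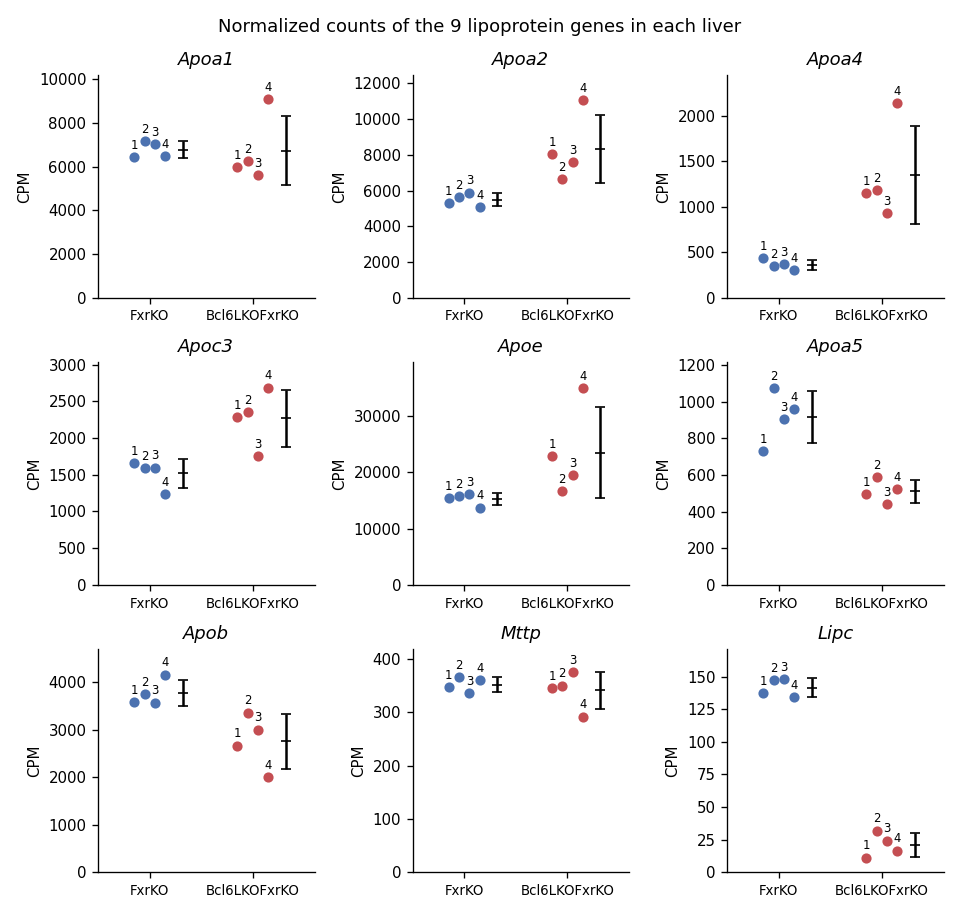
CPM of each gene on a linear axis from 0 in 4 FxrKO (blue) and 4 Bcl6LKOFxrKO livers (red), with the liver number above each point and bars for the mean ± SD. The groups separate for all genes but *Apoa1* and *Mttp*, and Bcl6LKOFxrKO liver 4 is the highest of its group in 5 panels and the lowest for *Apob* and *Mttp*.

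The structural proteins of HDL parted. *Apoa1* (NM_009692), whose protein forms the scaffold of HDL and activates LCAT, was at 6418, 7174, 7018 and 6460 CPM in FxrKO livers 1 to 4 and at 5968, 6259, 5598 and 9070 CPM in Bcl6LKOFxrKO livers 1 to 4. Liver 4 stood above all FxrKO livers and the other 3 Bcl6LKOFxrKO livers below all of them. The means of 6768 ± 385 and 6724 ± 1587 CPM (SD, n = 4 each) gave a log2 fold change of -0.01 (SE 0.16, edgeR adjusted p = 0.971), with a 95% interval of 0.785 to 1.26 for the fold change. *Apoa2* (NM_013474, chromosome 1 from 171225054 to 171226379), the second protein of HDL, was at 5306, 5643, 5889 and 5063 CPM and at 8056, 6639, 7605 and 11052 CPM in the same order. Every Bcl6LKOFxrKO liver was above every FxrKO liver, by a log2 fold change of 0.61 (SE 0.16, edgeR adjusted p = 0.0116). The ratio of *Apoa2* to *Apoa1* counts, which no scaling touches, was 0.827, 0.787, 0.839 and 0.784 in FxrKO livers and 1.35, 1.06, 1.36 and 1.22 in Bcl6LKOFxrKO livers. Every Bcl6LKOFxrKO ratio was above every FxrKO ratio, by a mean difference of 0.62 on the log2 scale (exact two-sided permutation p = 0.029, the smallest that 70 orderings of 8 livers can give, and 0.033 adjusted over 8 ratios).

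Of the 9 genes, *Apoa4* rose most. *Apoa4* (NM_007468) encodes a lipid-binding protein that the intestine makes in quantity and mouse liver also makes. It was at 435, 344, 367 and 302 CPM in FxrKO livers 1 to 4 and at 1150, 1180, 929 and 2135 CPM in Bcl6LKOFxrKO livers 1 to 4. The lowest Bcl6LKOFxrKO liver was above the highest FxrKO liver, and liver 4 was far above the rest of its group. The rise was 3.72-fold, with a 95% interval of 2.61 to 5.32 and a log2 fold change of 1.90 (SE 0.24, edgeR adjusted p = 0.000108), or 1.59 (adjusted p = 9.05e-06) without liver 4. Genes on the opposite strand, *Gm10680* and *Gm47528*, cover 34.8% and 34.9% of the exon bases of *Apoa4* in GENCODE, and the counting command names no strand. Of 8 enterocyte markers, *Alpi*, *Sis*, *Cdx1* and *Cdx2* had 0 counts in all 8 livers, and *Vil1* and *Fabp6* were at most at 1.14 CPM. The other members were counted, with *Fabp2* at 28.5 to 54.4 CPM in FxrKO livers and 8.47 to 18.7 CPM in Bcl6LKOFxrKO livers (called lower) and *Slc10a2* at 16.6 to 39.5 and 3.54 to 21 CPM (not called), and the list summed to 68.7 to 75.6 and 12.8 to 33.3 CPM. The part of such cells in the *Apoa4* counts was not tested.

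*Apoc3* (NM_001289755), whose protein inhibits lipoprotein lipase and remnant uptake, was at 1656, 1586, 1594 and 1234 CPM in FxrKO livers and at 2284, 2356, 1749 and 2686 CPM in Bcl6LKOFxrKO livers. The groups were apart, narrowly at Bcl6LKOFxrKO liver 3, with a log2 fold change of 0.58 (SE 0.15, edgeR adjusted p = 0.0121). *Apoa5* (NM_080434), which favours lipolysis and so acts against APOC3, moved the other way. It was at 730, 1074, 906 and 959 CPM and at 497, 589, 439 and 521 CPM, so that all Bcl6LKOFxrKO livers lay below all FxrKO livers. The fall was 1.79-fold, with a log2 fold change of -0.84 (SE 0.14, edgeR adjusted p = 0.000729). An antisense gene, *Gm47544*, covers 20.8% of the exon bases of *Apoa5*.

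Counts relative to *Apoa1*, their common neighbour, showed the same split in every liver. *Apoa4* over *Apoa1* was 0.0468 to 0.0678 in FxrKO livers and 0.166 to 0.235 in Bcl6LKOFxrKO livers, a log2 difference of 1.87. *Apoc3* over *Apoa1* was 0.191 to 0.258 and 0.296 to 0.383, a difference of 0.61. *Apoa5* over *Apoa1* was 0.114 to 0.15 and 0.0575 to 0.0941, a difference of -0.80. The ranges of each of these ratios were apart (exact permutation p = 0.029 each, 0.033 adjusted). Within 40 kb, the first gene of the cluster thus kept an interval that includes no change, the next 2 rose and the last fell.

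*Apoe* (NM_009696, chromosome 7 from 19696244 to 19699188), the ligand by which remnants bind their receptors, had the most counts of the 9. It was at 15412, 15824, 16144 and 13762 CPM in FxrKO livers and at 22881, 16726, 19558 and 34977 CPM in Bcl6LKOFxrKO livers. All 4 Bcl6LKOFxrKO values were above the FxrKO values, liver 2 only just and liver 4 by far. The log2 fold change was 0.62 (SE 0.20, edgeR adjusted p = 0.0315), with a 95% interval of 1.14 to 2.07 for the fold change. Without liver 4 it was 0.37 (adjusted p = 0.0619), and with total counts alone 0.46 (adjusted p = 0.0839). Leaving out any liver other than Bcl6LKOFxrKO liver 2 or 3 ended the call (adjusted p between 0.0609 and 0.0829 from edgeR). *Apoe* over *Apoa1* was 2.13 to 2.40 in FxrKO livers and 2.67 to 3.86 in Bcl6LKOFxrKO livers (log2 difference 0.60, exact permutation p = 0.029, 0.033 adjusted). Leaving out any 1 FxrKO liver raised the exact permutation p to 0.057, as another ordering gave a difference as large, with the groups still apart. Macrophages also express *Apoe*, and of 12 macrophage markers 5 rose and none fell (edgeR adjusted p under 0.05), where 16.2% of all tested genes rose and 13.5% fell. Their summed level was 547 to 754 CPM in FxrKO livers and 775 to 1288 CPM in Bcl6LKOFxrKO livers. The part of these cells in the *Apoe* counts was not tested, and in whole liver more cells of a type and more RNA per cell cannot be told apart.

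For VLDL assembly, *Apob* and *Mttp* differed. *Apob* (NM_009693, chromosome 12 from 7977677 to 8016839), the structural protein of VLDL and its remnants, was at 3579, 3749, 3569 and 4158 CPM in FxrKO livers and at 2661, 3358, 2997 and 2003 CPM in Bcl6LKOFxrKO livers. The groups did not overlap, with liver 4 again the farthest from FxrKO. The log2 fold change was -0.45 (SE 0.16, edgeR adjusted p = 0.0448), a value close to the threshold that became 0.0638 with upper quartile factors and 0.0558 among genes with at least 10 counts in every liver. Leaving out any liver other than Bcl6LKOFxrKO liver 2 ended the call, with adjusted p between 0.0562 and 0.114 in those 7 fits. *Mttp* (NM_001355051, chromosome 3 from 138089855 to 138143418) was at 347, 366, 336 and 360 CPM and at 346, 350, 376 and 292 CPM, and the groups overlapped. Its log2 fold change was -0.05 (SE 0.11, edgeR adjusted p = 0.786), with a 95% interval of 0.820 to 1.14 for the fold change. The ratio of *Mttp* to *Apob* was nevertheless apart, at 0.0866 to 0.0975 in FxrKO livers and 0.104 to 0.146 in Bcl6LKOFxrKO livers (log2 difference 0.42, exact permutation p = 0.029, 0.033 adjusted). It stayed apart without any 1 FxrKO liver, but the exact permutation p rose to 0.057, as another ordering gave a difference as large. *Apob* over *Apoa1* overlapped, at 0.509 to 0.644 and 0.221 to 0.536 (log2 difference -0.44, exact permutation p = 0.2), and the difference was -0.14 without Bcl6LKOFxrKO liver 4.

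*Lipc* (NM_001324472), the hepatic lipase that acts on HDL and on remnants, fell most of the 9. It was at 137, 147, 148 and 134 CPM in FxrKO livers and at 11.2, 31.9, 24.1 and 16.4 CPM in Bcl6LKOFxrKO livers. These values rest on 1175 to 1421 and 111 to 263 counts, well above the floor of 3 counts. The FxrKO livers were close to each other, and each Bcl6LKOFxrKO liver was far below them. *Lipc* was 6.81-fold lower, with a 95% interval of 4.55 to 10.2 and a log2 fold change of -2.77 (SE 0.26, edgeR adjusted p = 3.06e-05). Its ratio to *Apob* was 0.0323 to 0.0414 and 0.0042 to 0.00951, a log2 difference of -2.40 (exact permutation p = 0.029, 0.033 adjusted).

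**Figure D2:**
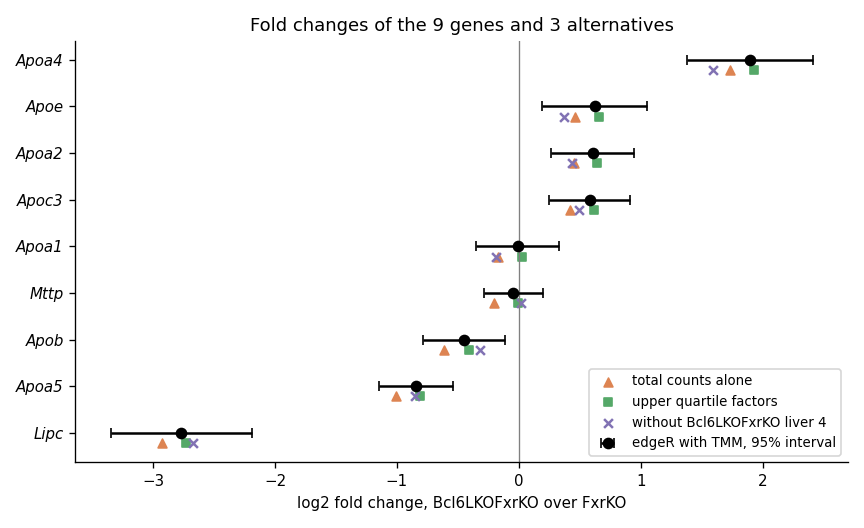
Log2 fold change of each gene (Bcl6LKOFxrKO over FxrKO) from edgeR with its 95% interval, and 3 alternatives drawn below each point. *Apoa4* at 1.90 and *Lipc* at -2.77 stand farthest from 0, while *Apoa1* and *Mttp* cross it.

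Levels of different genes were compared as RPKM, that is CPM per kilobase of the counted transcript. In FxrKO livers the order was *Apoe* (mean 12064 RPKM), *Apoa2* (10632), *Apoa1* (6892), *Apoc3* (2428), *Apoa5* (396), *Apob* (271), *Apoa4* (218), *Mttp* (79.2) and *Lipc* (75.1). The ranges over livers overlapped for *Apoe* and *Apoa2*, for *Apob* and *Apoa4*, and for *Mttp* and *Lipc*, and the other neighbours in the order were apart. In Bcl6LKOFxrKO livers *Apoe* (18576 RPKM), *Apoa2* (16190), *Apoa1* (6847) and *Apoc3* (3630) kept the first places, and *Apoe* and *Apoa2* overlapped again. *Apoa4* (812 RPKM) passed *Apoa5* (221) and *Apob* (198), which overlapped each other. *Mttp* (76.7 RPKM) and *Lipc* (11.1) were then apart. The 9 genes together held 3.59, 3.79, 3.82 and 3.41% of all gene counts in FxrKO livers and 4.25, 3.37, 3.85 and 5.84% in Bcl6LKOFxrKO livers, and the groups overlapped (exact permutation p = 0.26). *Apoe* alone took 1.45% to 1.72% and 1.51% to 3.25% of counts.

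**Figure D3:**
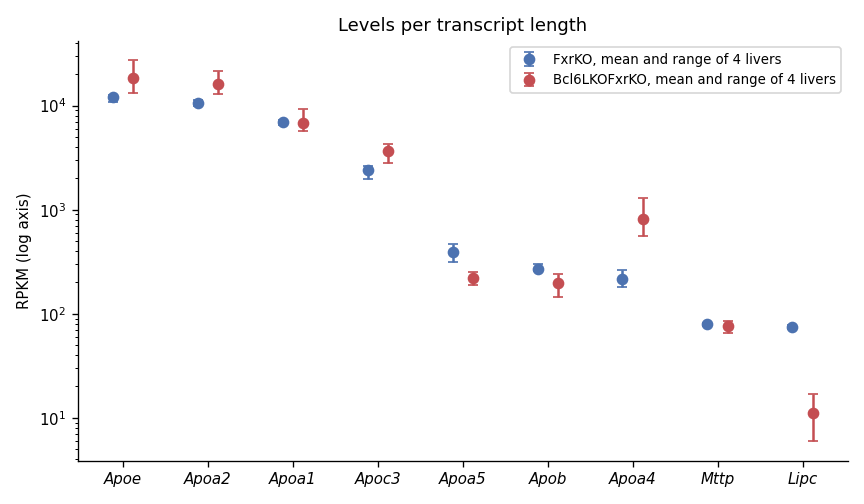
Mean RPKM on a log axis with the range over 4 livers of each genotype, genes ordered by their FxrKO mean. *Apoa4* moves from 218 to 812 RPKM and *Lipc* from 75.1 to 11.1, while the first 4 genes keep their order.

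The genes around the 2 apolipoprotein clusters were not called as a block. Upstream of *Apoa1*, *Sik3*, a kinase gene that begins 216 kb away, fell (log2 fold change -0.48), as did *Pcsk7* (-0.39), *Rnf214* (-0.37) and *Bace1* (-0.52), while *Tagln*, a smooth muscle gene, rose (0.82). *Pafah1b2* (-0.23), *Sidt2* (-0.17) and *Cep164* (0.01) were not called, nor were *Zpr1* (-0.05) and *Bud13* (-0.25) beyond *Apoa5*. *Pcsk7* and *Tagln* have ends that overlap on opposite strands, and so do *Rnf214* and *Pcsk7*, which leaves the source of reads there uncertain. Among the neighbours of *Apoe*, *Apoc2*, the cofactor of lipoprotein lipase, was at 107 to 127 CPM in FxrKO livers and 484 to 838 CPM in Bcl6LKOFxrKO livers, a log2 fold change of 2.42 (SE 0.17, edgeR adjusted p = 3.16e-07). *Gm44805*, annotated as a read-through of *Apoc4* and *Apoc2*, spans the same exons and also rose (1.66, adjusted p = 7.36e-06), so the counts of *Apoc2* and *Apoc4* are uncertain. *Apoc1*, which lies between *Apoe* and *Apoc4*, was at 2250 to 3510 CPM in Bcl6LKOFxrKO livers and 2675 to 3127 CPM in FxrKO livers and was not called (-0.16), nor was *Apoc4* (0.12). Farther out, *Relb*, an NF-kappa-B subunit, rose (1.23), *Tomm40* (-0.46) and *Nectin2* (-0.63) fell, and *Clptm1* (-0.10), *Clasrp* (0.35), *Gemin7* (0.25), *Bcam* (0.44), *Cblc* (-0.17) and *Bcl3* (-0.78) were not called.

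**Figure D4:**
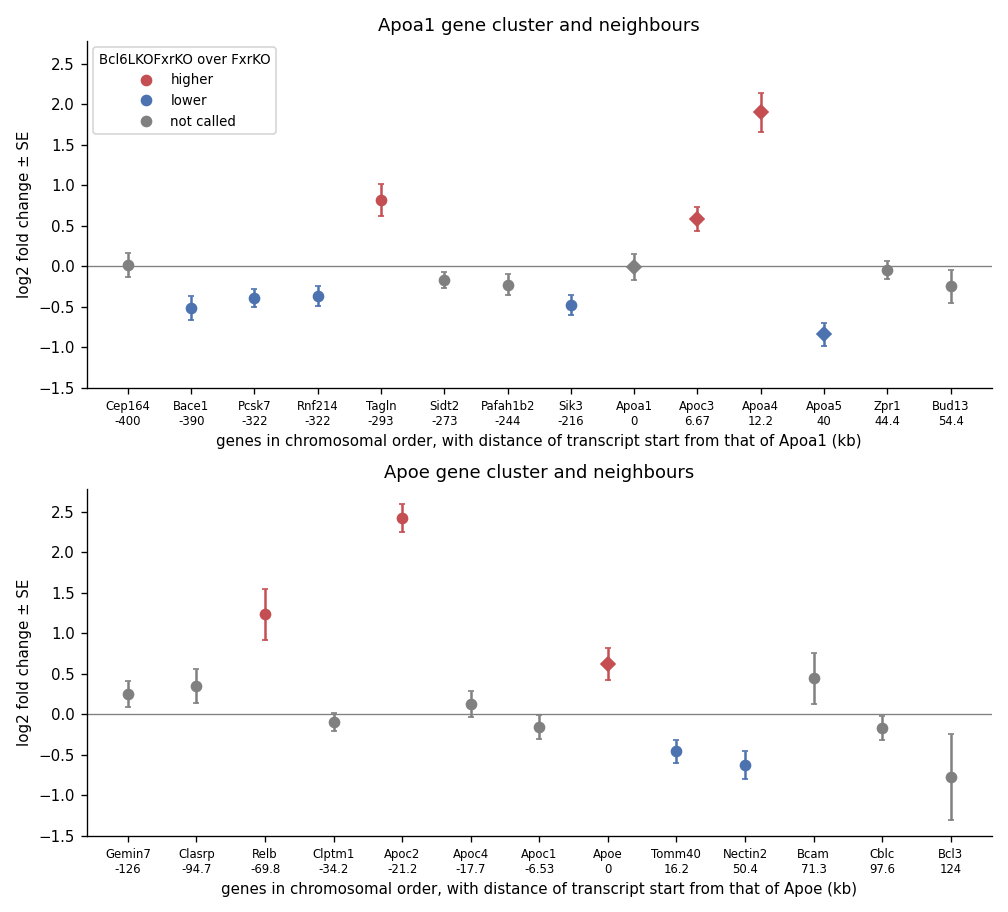
Log2 fold change ± SE of the genes in and around the *Apoa1* (top) and *Apoe* (bottom) clusters, in chromosomal order with the distance of each transcript start in kb. Diamonds are the genes described here, and neighbours within each cluster are higher (red), lower (blue) or not called (grey).

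Of 15 other tested apolipoproteins and lipoprotein-borne proteins, 4 rose and 1 fell, and the median change was 0.06 on the log2 scale. Over all tested genes 16.2% rose and 13.5% fell. *Apoc2* led the rises, followed by *Pon3*, an HDL-borne lactonase (0.59, edgeR adjusted p = 0.00249), and *Apom*, which carries sphingosine-1-phosphate on HDL (0.55, adjusted p = 0.0162). *Saa4*, a constitutive serum amyloid A of HDL, fell by 2.40 on the log2 scale (adjusted p = 0.00497), from 438 to 942 CPM in FxrKO livers to 88 to 267 CPM in Bcl6LKOFxrKO livers. With total counts alone, 2 of this list rose and 3 fell, and leaving out single livers left 2 to 5 rises, the fewest without FxrKO liver 2, and 1 to 2 falls, the larger number without FxrKO liver 4 or Bcl6LKOFxrKO liver 4.

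Of 20 tested genes of VLDL assembly and secretion, 2 rose and 5 fell, with a median of 0.02, where 16.2% of all tested genes rose and 13.5% fell. *Tm6sf2*, which promotes the lipidation of VLDL, was at 20.5 to 32.8 CPM in FxrKO livers and 50.3 to 76.3 CPM in Bcl6LKOFxrKO livers (log2 fold change 1.28, edgeR adjusted p = 0.000148). *Ces1g*, a carboxylesterase, rose by 1.95 (adjusted p = 0.000913). *Ces3a*, a carboxylesterase of the endoplasmic reticulum, fell from 2521 to 3011 CPM to 402 to 702 CPM (-2.33, adjusted p = 5.06e-07), as did *Aadac*, a microsomal lipid hydrolase (-0.58, adjusted p = 0.00199), and *Mia2*, which helps large cargo leave the endoplasmic reticulum (-0.69, adjusted p = 0.00387).

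For lipolysis and its control, 3 of 11 tested genes rose and 1 fell, with a median of 0.02, beside 16.2% and 13.5% of all tested genes. *Lpl*, lipoprotein lipase, was low at 11.2 to 20.3 CPM in FxrKO livers and 25.8 to 40.4 CPM in Bcl6LKOFxrKO livers (1.08, edgeR adjusted p = 0.00118). *Gpihbp1*, its endothelial anchor (0.67, adjusted p = 0.0307), and *Angptl6* (0.46, adjusted p = 0.0489) rose near the threshold, and 1 rise was left in this list without FxrKO liver 1, 2 or 4 or Bcl6LKOFxrKO liver 3 or 4. *Lipg*, endothelial lipase, fell by 2.71 (adjusted p = 0.0224) with FxrKO livers as far apart as 7.81 and 55 CPM, and no gene of the list was called lower without Bcl6LKOFxrKO liver 1, 2 or 3. Thus in the same livers *Lipc* and *Lipg* fell while *Lpl* rose.

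Of 19 tested genes of lipoprotein uptake and cholesterol efflux, 5 rose and 4 fell, with a median of -0.07, where 16.2% of all tested genes rose and 13.5% fell. *Sdc1*, a proteoglycan that binds remnants, rose by 1.41 (edgeR adjusted p = 3.92e-06), *Vldlr* by 2.48 (adjusted p = 1.5e-05), from 1.37 to 2.55 CPM to 7.89 to 16.2 CPM, and *Cd36*, a fatty acid translocase, by 0.99 (adjusted p = 0.00058). *Scarb1*, the HDL receptor, fell by 0.71 (adjusted p = 0.00214), and the genes of the sterol exporter *Abcg8* and *Abcg5* fell by 1.17 (adjusted p = 0.000119) and 1.01 (adjusted p = 0.00496).

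Of 30 tested genes of transcription factors known to act on apolipoprotein genes, 1 rose and 13 fell, with a median of -0.47. Over all tested genes 16.2% rose and 13.5% fell, with a median of 0.01. Both groups carry the deletion of FXR, whose gene *Nr1h4* was still counted at 56.7 to 62.6 and 39.4 to 48.1 CPM and is among the 13. After *Nr0b2*, the falls with the smallest adjusted p were *Foxa1*, a pioneer factor of liver genes (-1.64, edgeR adjusted p = 0.000405), and *Mlxipl*, the glucose-responsive ChREBP (-1.08, adjusted p = 0.000485). *Nr1h2*, the gene of LXR beta, rose by 0.55 (adjusted p = 0.00376). With total counts alone 18 fell, and with upper quartile factors 12.

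**Figure D5:**
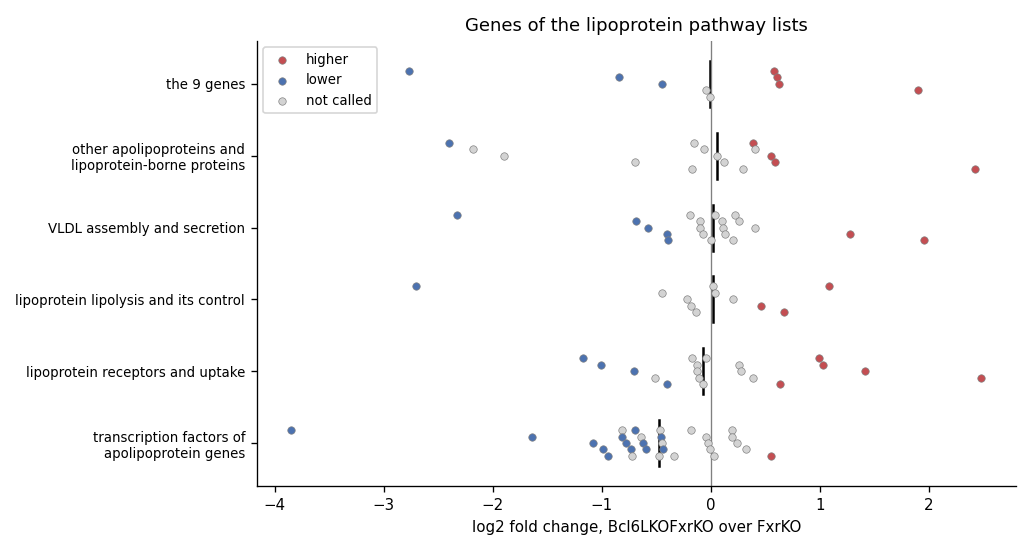
Log2 fold change of the tested genes of each list (points, spread vertically for legibility) with the list median as a black line. The transcription factors lie mostly left of 0, with a median of -0.47, and the other lists have medians between -0.07 and 0.06.

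Genes whose profiles over the 8 livers were closest to those of the called genes were found among 2499 genes with a mean of at least 50 CPM, by the root mean square difference of mean-centred log2 CPM. *Taldo1* was closest to both *Apoa2* (0.052) and *Apoe* (0.12), followed by *Sil1* and *BC004004* for *Apoa2* and *Uqcr11* and *Psmd4* for *Apoe*. *Apoa4* was closest to *Gm44805* (0.19), *Lgals1* and *Ctsz*, *Apoc3* to *Mst1* (0.077), *Actn4* and *Acp5*, and *Apob* to *Nucks1* (0.067), *Ipo7* and *Tmem106b*. For *Apoa5* the closest were *Cyp2a12* (0.11), *Cyp4f15* and *Ahcy*, and for *Lipc* they were *Hao1* (0.29), *Cyp2d13* and *C8b*. These are descriptions over libraries that share the genotype difference.

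Markers of other liver cells moved along with the genotype, and their part in the results was not tested. The counts below stand beside 16.2% of all tested genes called higher and 13.5% lower. Of 10 stellate cell markers 8 rose and none fell, with a summed level of 298 to 411 CPM in FxrKO livers and 607 to 688 CPM in Bcl6LKOFxrKO livers. Of 6 tested cholangiocyte markers 3 rose (58.7 to 85.2 and 109 to 216 CPM over the list), and of 8 sinusoidal endothelial markers 1 rose (166 to 228 and 211 to 283 CPM). T cell markers were too low to be tested, at a summed 1.5 to 2.36 and 4.33 to 6.36 CPM. Of 9 tested hepatocyte markers, 4 rose and 2 fell, and their median change was -0.18 on the log2 scale.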

How the data were processed

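Stranded polyA libraries were read as 100 bp single ends. The authors mapped them with STAR 2.5.2 (mm10, unique hits, up to 4 mismatches) and deposited exon read counts that HOMER 4.10 made for 1 transcript of each gene, without normalization. The command in the header of the deposited table names no strand, so antisense and overlapping genes are uncertain.

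The main test was that of edgeR 4.0.16 under R 4.3.3 (filterByExpr, TMM factors, robust quasi-likelihood test, Benjamini-Hochberg over 12340 genes, called at an adjusted p under 0.05). DESeq2 1.42.0, which the methods of the study name, limma 3.58.1 (voom with quality weights), other scalings and filters, and each liver left out were alternatives. Livers were grouped by their labels and numbered 1 to 4 within each genotype in accession order, which pairs none. No pair of livers agreed within sampling noise (chi-square per degree of freedom 10.0 to 45.8). Ratios, shares and levels were compared by exact two-sided permutation tests or described. Intervals and the floor of 3 counts (0.253 to 0.395 CPM) cover these livers and counting error only.

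On counts simulated for these 12340 genes with 200 changed, the fit recovered 23.9% of 1.5-fold, 65.7% of 2-fold and 97% of 4-fold changes, and 4.62% of its calls were false. In the real fit 1994 genes were called higher and 1665 lower. An adjusted p depends on how many genes change, so the simulated shares do not carry over to the real fit.

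The genes, the lists and the rule for named genes were chosen with earlier results of these data known. Named were the 9 genes, the 3 most significant called genes of each list in either direction, all listed cluster neighbours, *Bcl6*, *Nr1h4*, *Nr0b2* and *Alb*, and 3 genes of similar profile for each called gene. The spacer of the direct repeat was searched as any 2 bases, where the plan fixed 1 of them, and CAAAGNNCA and TATAAA were added after the sequences were seen. Proteins were not analysed here.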

Additional observations from a re-analysis of the deposited data

Results flagged for a closer look

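The 36 sets of 4 livers behind the CPM of the 9 genes, the 8 ratios and the summed share were each checked for a liver that stands apart from the rest by Dixon's ratio (gap to the nearest value over the range, with the 95% critical value), and chance alone flags about 1.8 of 36. The *Apoc3* level of FxrKO liver 4, at 1234 CPM where the next was 1586, had a ratio of 0.833. Without that liver *Apoc3* was still called higher, as in each fit that left out 1 liver (adjusted p 0.00449 to 0.0421). Bcl6LKOFxrKO liver 4, the highest of its group for *Apoe*, *Apoa1*, *Apoa2*, *Apoa4* and *Apoc3*, was not past the critical value for any of them.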

How the results depend on the processing

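*Apoa2*, *Apoa4*, *Apoa5*, *Apoc3* and *Lipc* kept their direction and their call under all 17 alternatives each, with log2 fold changes of 0.44 to 0.69, 1.59 to 2.04, -1.01 to -0.76, 0.42 to 0.69 and -3.05 to -2.56. *Apob* missed the threshold with upper quartile factors (-0.41) and where each liver had to have at least 10 counts (-0.43), and lay between -0.57 and -0.32 when single livers were left out. *Apoe* missed it with total counts alone (0.46) and lay between 0.37 and 0.74 when single livers were left out, losing the call in all such fits but those without Bcl6LKOFxrKO liver 2 or 3 (adjusted p 0.00798 to 0.0829). The uncalled *Apoa1* changed sign with upper quartile factors (0.03), under that stricter filter (0.01) and among the fits without 1 liver (-0.19 to 0.07), as did *Mttp* among those fits (-0.09 to 0.02). The causes were not tested. The members called numbered 3 to 4 higher and 2 to 3 lower when single livers were left out. Total counts alone called 1404 genes higher and 2949 lower, against 1994 and 1665 with TMM. The share of counts in the 9 genes differed by 1.88 percentage points (exact permutation p = 0.029) when the 50 most counted other genes were left out of the denominator, against 0.677 with all genes, and by 0.174 to 0.995 when single livers were left out, the lowest without Bcl6LKOFxrKO liver 4 and the highest (exact p = 0.029) without liver 2. No ratio changed direction when single livers were left out, with log2 differences of 0.55 to 0.72 for *Apoe* over *Apoa1*, 0.35 to 0.51 for *Mttp* over *Apob* and -0.57 to -0.14 for *Apob* over *Apoa1*. *Apoe* over *Apoa1* and *Mttp* over *Apob* had an unadjusted exact p of 0.057 without any 1 FxrKO liver, though the groups stayed apart. The other 5 ratios apart from *Apob* over *Apoa1* stayed at 0.029. With 1 liver left out there are fewer than 70 orderings, but the same number for every ratio. The exact permutation p of 0.057 is therefore weaker than the 0.029 of those 5 ratios. Ratios that share 0.029 are not ranked by it. No paired analysis was possible because the livers carry no shared numbers. The 2 uncalled genes are bounded only by their intervals, 0.785 to 1.26 for the fold change of *Apoa1* and 0.820 to 1.14 for *Mttp*. Changes of 1.5-fold were mostly missed in simulated counts, but only 200 genes were changed there. That share does not carry over to these livers.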
